A study of Mus musculus with 12 samples.

Results

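The 4 segments TRBD1, TRBD2, TRBC1 and TRBC2 are the diversity (D) and constant (C) segments of the mouse T cell receptor beta (TRB) locus. Their use was read from the D and C names that the deposited files give to assembled TRB chains, which made up 24619 of 48792 chains in 6 libraries. Of these TRB chains 2884 were named TRBD1, 2075 TRBD2 and 19660 carried no D call, while 7331 were named TRBC1, 17192 TRBC2 and 96 carried no C call. None of 24173 alpha (TRA) chains carried a D call.

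A beta chain gene is made in developing T cells by joining a D segment to a J segment and then a V segment to the DJ join, and the third complementarity-determining region (CDR3), which contacts the peptide antigen, spans these joins. In the RefSeq annotation of the mouse assembly GRCm38.p6 the order on chromosome 6 is TRBD1, the first J cluster, TRBC1, TRBD2, the second J cluster and TRBC2. A deletional join can therefore bring TRBD1 to either J cluster, whereas TRBD2 lies downstream of the first one. The C segment is reached by splicing of the transcript, not by joining of DNA, and it encodes the part of the chain that anchors it in the membrane. Bases are trimmed from the ends of each segment and others are added without a template, so that a D segment is often left as a short run of bases that cannot be assigned.

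The cells came from subcutaneous tumours of MC38-p53KO cells, a derivative of a mouse colon carcinoma line with its own p53 knocked out. The labels also give the line a p53 substitution, whose notation differs between them and is not printed here, so the tumours are not labelled as p53-null. The hosts were C57BL/6J mice of 6 to 8 weeks that received 300000 cells. On day 10, tumours of 50 to 100 mm³ were injected once with 40 µg of LNP-P20-mAb or of LNP-Ctrl, and the series concerns an antibody against frequent p53 mutants. CD45-positive cells, the leukocytes, were sorted from the tumours, and about 10000 per sample entered 5′ single-cell libraries. There were 3 TCR libraries for LNP-P20-mAb and 3 for LNP-Ctrl, while 6 further samples of gene expression are not analysed here, so that cells are known as T cells by their receptor chains alone. Whether each library stands for its own animal is not stated, so every p-value refers to differences among these libraries, which may be technical.

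A receptor here is a combination of V segment, J segment and CDR3 bases, counted once per library. Barcodes with a single TRB chain gave 20924 chains and 11637 receptors, with 609, 432 and 1468 receptors in LNP-P20-mAb 1, 2 and 3 and 1937, 3489 and 3702 in LNP-Ctrl 1, 2 and 3. The median TRB chain was supported by 13 to 20 unique molecular identifiers (UMIs) per library. LNP-P20-mAb 1 and 2 shared 124 receptors, on 4918 cells of the 2 libraries, so these libraries are not independent, and values with both pooled into 1 sample were also computed. Pairs of libraries shared 10 to 28 cell barcodes, and LNP-P20-mAb 1 and 2 shared 14.

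The D segments were read from the receptors themselves, at the annotated length of each segment. Each is the run of bases whose share among receptors with that D call most exceeded its share among receptors without a call. They are shown because every later count of D bases refers to them, and the capital marks position 6 from the 5′ end, where the segments differ. TRBD2 also has a longer stretch of g.
TRBD1: gggacAgggggc
TRBD2: gggacTgggggggc
The whole TRBD1 run of 12 bases stood in 165 of 1692 receptors with that call (each counted once over all libraries), the whole TRBD2 run of 14 bases in 121 of 1009, and neither in the 8764 receptors without a call. Rarity among receptors without a call was part of the choice of these runs, so their absence there is no separate check.

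The D segment used depended on the J cluster. TRBD2 made up 59.2%, 49.3% and 57.5% of D-called receptors of the second J cluster in LNP-P20-mAb 1, 2 and 3, and 50.9%, 50.7% and 50.3% in LNP-Ctrl 1, 2 and 3. In the first J cluster the same share was 3.03%, 0% and 0% in LNP-P20-mAb libraries and 0%, 0.816% and 1.23% in LNP-Ctrl libraries. The clusters did not overlap in any library, and over the 6 libraries the share averaged 53.0% ± 4.26 in the second and 0.846% ± 1.19 in the first cluster (SD, n = 6). The difference of 52.1 percentage points had the smallest p that a two-sided exact sign-flip permutation test over 6 libraries can give (p = 0.031). With LNP-P20-mAb 1 and 2 pooled the difference was 52.6 points (exact sign-flip p = 0.0625, the smallest for 5 samples). Adjusted by Benjamini-Hochberg over 13 sign-flip tests, the smallest exact p became 0.0677, so that none of these passes 0.05 after adjustment. Sign-flip p-values of other settings (by run, within V-J pairs, by means, or pooled) were not adjusted.

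**Figure D1:**
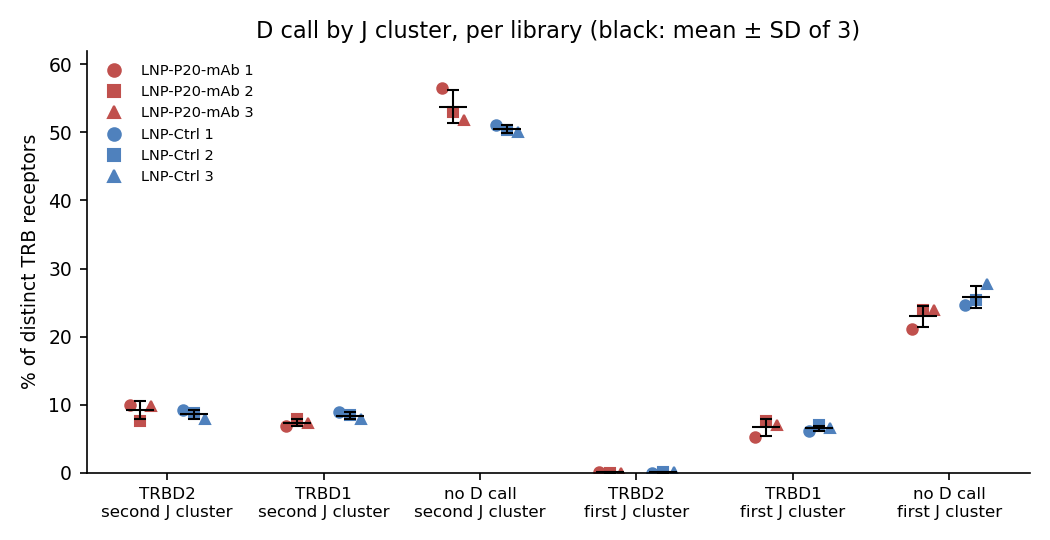
Percent of each library's distinct TRB receptors (vertical axis) in each combination of D call and J cluster (horizontal axis), with 1 point per library and mean ± SD of 3 libraries in black. TRBD2 lies near 0 in the first J cluster in all 6 libraries, while TRBD1 occurs with both clusters.

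TRBD1 was called with both clusters, in 20.6% of 3746 receptors of the first and in 11.9% of 7891 of the second. Of 1715 TRBD1 receptors 942 were joined to the second J cluster and 773 to the first, whereas 1015 of 1021 TRBD2 receptors were joined to the second and 6 to the first. These 6 made up 0.770% of 779 D-called receptors of the first cluster (95% interval by the exact Clopper-Pearson method 0.283 to 1.67%, for counting error alone). They were single-cell receptors of LNP-P20-mAb 1, LNP-Ctrl 2 and LNP-Ctrl 3, on 5 different J segments, and their longest exact match to TRBD2 was 5 to 9 bases. The remaining 8901 receptors, 76.5% of all, had no D call. A D segment was called in 24.4% ± 1.38 of receptors of the second cluster and in 21.4% ± 1.88 of those of the first (SD, n = 6), a difference of 2.92 percentage points (exact sign-flip p = 0.0625).

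Each C segment was read with its own J cluster without exception. All 3708 TRBC1 receptors used a J of the first cluster and all 7874 TRBC2 receptors a J of the second, and 0 of 11637 receptors were crossed, which allows a share of up to 0.0258%. TRBC2 was called in 99.5% to 100% of second-cluster receptors and in 0% of first-cluster receptors (difference 99.8 percentage points, exact sign-flip p = 0.031). TRBC1 and TRBC2 are near-identical copies, and the sources used here do not say whether the J segment entered the naming of C, so the C names here repeat the J cluster. The test and the bound therefore describe the names alone, and they cannot check which C segment was spliced. TRBC1 stood on 31.9% of receptors, TRBC2 on 67.7%, and 55 receptors (0.473%) had no C call.

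Chains without a C call had little support. The 82 chains without one had a median of 2 UMIs and an assembled length of 491.5 bases, against 17 UMIs and 549 bases for TRBC2 chains and 16 UMIs and 559 bases for TRBC1 chains. Per chain, TRBC1 had the higher median in LNP-P20-mAb 1 and 2 (24 and 27 UMIs, against 17 and 17 for TRBC2). In each other library the TRBC2 median was higher. Counted once per receptor by the mean over its cells, the median was 16.3 ± 1.73 UMIs for TRBC2 and 14.9 ± 2.13 for TRBC1 (SD, n = 6). The log2 ratio of TRBC2 over TRBC1 was 0.23, 0.01 and 0 in LNP-P20-mAb 1, 2 and 3 and 0.16, 0.22 and 0.21 in LNP-Ctrl 1, 2 and 3. It averaged 0.14 (exact sign-flip p = 0.0625, and p = 0.031 with means in place of medians over receptors). Receptors with a D call had 15.8 ± 1.89 UMIs and those without one 15.5 ± 1.88, a log2 ratio of 0.02 (exact sign-flip p = 0.75).

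The missing D calls were not evenly spread between the segments. A run of 7 bases around position 6 tells TRBD1 from TRBD2, GACAGGG for TRBD1 and GACTGGG for TRBD2, and it was searched on both strands. The runs were chosen after the data were seen, and a match is a description of letters, not of origin. The TRBD2 run stood in 1821 receptors and the TRBD1 run in 1574, with both in 2 and neither in 8240. On the other strand the TRBD2 run stood in 3 receptors and the TRBD1 run in 2. Among 12922 distinct alpha chain receptors, which have no D segment, the TRBD2 run stood in 0.0464% and the TRBD1 run in 0.108%.

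Of the 1821 receptors with the TRBD2 run alone, 701 were called TRBD2, 128 were called TRBD1 and 992 (54.5%) had no call. Of the 1574 with the TRBD1 run alone, 1114 were called TRBD1, 0 TRBD2 and 460 (29.2%) had no call. In the other direction, 320 TRBD2 calls and 472 TRBD1 calls had neither run. Of all receptors without a D call 1453 (16.3%) held a run, 1257 of them in the second and 196 in the first J cluster.

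The call depended on the segment at equal length of match. Receptors were taken by the segment to which their CDR3 had the longer exact match. Of 586 receptors that matched TRBD2 over 9 bases 12.3% were called TRBD2, and of 561 that matched TRBD1 over 9 bases 83.4% were called TRBD1. At 11 bases the called share was 47.6% for TRBD2 and 88.3% for TRBD1, and at 13 bases all 143 TRBD2 matches were called. Within the second J cluster and over 9 to 11 exact bases, 27.6%, 29.2% and 26.3% of TRBD2 matches were called TRBD2 in LNP-P20-mAb 1, 2 and 3, and 28.9%, 28.7% and 28.5% in LNP-Ctrl 1, 2 and 3. For TRBD1 the called share was 61.9%, 70.0% and 79.7% in LNP-P20-mAb, against 87.0%, 82.4% and 82.8% in LNP-Ctrl libraries. The difference, TRBD2 minus TRBD1, was below 0 in 6 of 6 libraries and averaged -49.1 percentage points (exact sign-flip p = 0.031), and -51.9 with LNP-P20-mAb 1 and 2 pooled (exact sign-flip p = 0.0625).

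**Figure D2:**
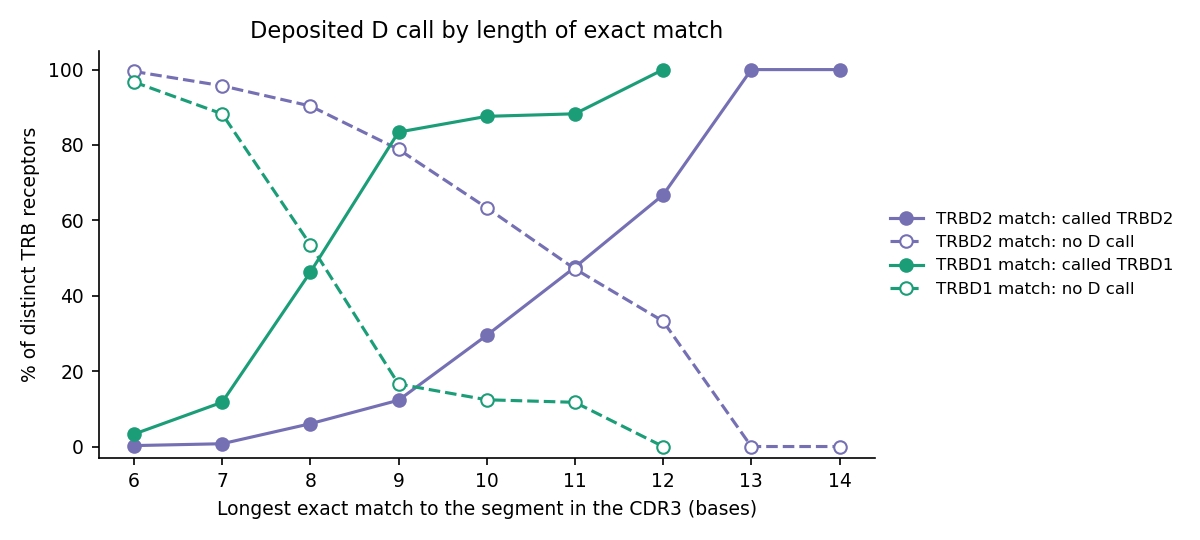
Percent of distinct TRB receptors with a given deposited D call (vertical axis) against the length in bases of their longest exact match to TRBD2 or TRBD1 (horizontal axis), all libraries together. At 9 bases 12.3% of TRBD2 matches and 83.4% of TRBD1 matches carried the matching call. The whole segments were chosen partly for their rarity among receptors without a call, so the points at full length are no separate check.

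Naming D by these runs moved the balance of the segments in the second J cluster. There the TRBD2 run made up 71.9%, 66.0% and 75.4% of runs in LNP-P20-mAb 1, 2 and 3, and 68.6%, 68.1% and 68.5% in LNP-Ctrl 1, 2 and 3. By run TRBD2 averaged 69.7% ± 3.37 and by call 53.0% ± 4.26 (SD, n = 6), and the share by run was higher in 6 of 6 libraries by 16.8 percentage points (exact sign-flip p = 0.031), and by 17.2 with LNP-P20-mAb 1 and 2 pooled (exact sign-flip p = 0.0625). Fewer bases follow the run in TRBD1, of 12 bases, than in TRBD2, of 14. The runs are thus not equally exposed to trimming at the 3′ end, and the share by run is not a corrected share. Whether this bears on the shift was not tested. In the first cluster 772 receptors held the TRBD1 run alone and 3 the TRBD2 run alone. The gap between the clusters in the TRBD2 share was 69.4 percentage points by run (exact sign-flip p = 0.031). By run the second-cluster share was 71.1% ± 4.78 in LNP-P20-mAb, against 68.4% ± 0.269 in LNP-Ctrl, and by call 55.3% ± 5.34 in LNP-P20-mAb, against 50.6% ± 0.306 in LNP-Ctrl (SD, n = 3 each). Each difference had an exact permutation p of 0.4, where 3 against 3 libraries cannot give less than 0.1.

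Examples of receptors with the TRBD2 run show both kinds of mismatch between letters and call, with the longest exact TRBD2 match in capitals. Only receptors of several cells were taken, and all used the second J cluster with TRBC2.
Called TRBD1, 10 cells of LNP-P20-mAb 1, TRBV31 with TRBJ2-5: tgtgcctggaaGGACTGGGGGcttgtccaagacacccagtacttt
Called TRBD1, 3 cells of LNP-Ctrl 2, TRBV19 with TRBJ2-7: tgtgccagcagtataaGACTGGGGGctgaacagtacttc
No D call, 89 cells of LNP-P20-mAb 3, TRBV16 with TRBJ2-5: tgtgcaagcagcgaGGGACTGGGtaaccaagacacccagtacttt
No D call, 59 cells of LNP-P20-mAb 1 and 32 of LNP-P20-mAb 2, TRBV13-1 with TRBJ2-7: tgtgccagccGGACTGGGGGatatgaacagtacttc
The first 2 matched TRBD2 over 10 and 9 bases and TRBD1 over 6, and the other 2 matched TRBD2 over 9 and 10 bases and TRBD1 over 5.

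Where a D was called, most of it was present. TRBD2 receptors kept a longest exact stretch of 11.4 ± 1.63 of 14 bases and TRBD1 receptors one of 9.11 ± 1.66 of 12 (SD over 1019 and 1631 receptors with at least 6 exact bases, which are not replicates). The full segment stood in 122 TRBD2 receptors (12.0%) and 169 TRBD1 receptors (10.4%). TRBD2 was shortened more at its 5′ end, where 1.83 bases were missing on average and 28.4% of receptors kept the end base, than at its 3′ end, with 0.759 bases missing and 54.7% intact. TRBD1 lost 1.46 bases at the 5′ end and 1.43 at the 3′ end, with 47.9% and 40.7% intact. The 1631 include receptors like the first 2 examples above, called TRBD1 with the TRBD2 run and a TRBD1 match of 6 bases. In these the TRBD1 trimming and frame may be misread. How many of the 128 such receptors are included was not counted. Since short matches were mostly not called, these lengths describe called receptors and not all joins.

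Both D segments can be read in 3 frames, and all 3 were used. TRBD2 was read most often in the frame that gives aspartate, tryptophan and glycine, in 46.9% of 1019 receptors. Its leucine frame was read in 27.5% and its threonine frame in 25.6%. TRBD1 was read in the threonine frame in 40.8% of 1631 receptors, in the glutamine frame in 33.6% and in the frame with aspartate and arginine in 25.6%. These 1631 include receptors called TRBD1 that hold the TRBD2 run, whose TRBD1 frame may be misread. By library the tryptophan frame of TRBD2 held 36.4% to 55.7% and the threonine frame of TRBD1 35.4% to 45.6%. The tryptophan frame took 48.4% ± 10.5 of TRBD2 receptors in LNP-P20-mAb, against 46.2% ± 5.25 in LNP-Ctrl libraries (SD, n = 3 each). For the 6 frames the lowest exact permutation p between the treatments was 0.4, and 0.7 after Benjamini-Hochberg adjustment over the 6.

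Receptors with a D call had longer CDR3s. Short matches were mostly not called (TRBD1 matches were called TRBD1 in 3.29% at 6 bases and in 88.3% at 11). A D call thus selects receptors with more D bases, and the tests here describe the calls. The mean length was 43.8, 43.5 and 44.2 bases with a D call in LNP-P20-mAb 1, 2 and 3, and 44.0, 43.5 and 43.7 in LNP-Ctrl 1, 2 and 3. Without a D call it was 41.5, 41.5 and 41.6 bases in LNP-P20-mAb 1, 2 and 3, and 41.4, 41.5 and 41.2 in LNP-Ctrl 1, 2 and 3. The difference was positive in 6 of 6 libraries, 2.34 ± 0.289 bases on average (SD, n = 6; exact sign-flip p = 0.031), and 2.12 bases when taken within pairs of V and J segments (exact sign-flip p = 0.031). With LNP-P20-mAb 1 and 2 pooled it was 2.40 bases (exact sign-flip p = 0.0625). By treatment it was 2.27 ± 0.320 bases in LNP-P20-mAb, against 2.40 ± 0.305 in LNP-Ctrl libraries (SD, n = 3 each; exact permutation p = 0.6).

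The share of receptors with a D call was higher at longer CDR3s, 1.80% of 111 receptors at 30 bases, 22.3% of 3595 at 42 bases and 55.6% of 63 at 54 bases, with no test made of this trend. It too describes the calls, since short D matches were mostly not called. TRBD1 and TRBD2 followed different courses. Among lengths with at least 50 receptors TRBD1 was called most often at 45 bases, in 20.3% of 2674 receptors, and in 9.52% at 54 bases. TRBD2 was called in 1.68% of receptors at 33 bases, 11.2% at 45 and 46.0% at 54.

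**Figure D3:**
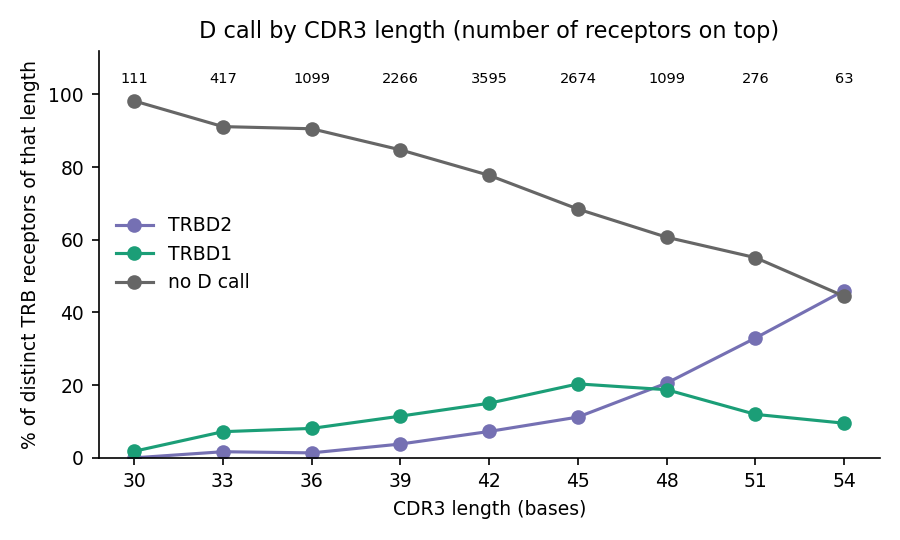
Percent of distinct TRB receptors with each D call (vertical axis) by CDR3 length in bases (horizontal axis), all libraries together, for lengths with at least 50 receptors and their number on top. The share without a D call falls from 98.2% at 30 bases to 44.4% at 54 bases, and TRBD2 exceeds TRBD1 from 48 bases. Short D matches were mostly not called.

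Within the second J cluster, TRBD2 receptors had longer CDR3s than TRBD1 receptors. The means by library were 44.6, 44.2 and 45.4 bases for TRBD2 in LNP-P20-mAb, against 45.7, 44.6 and 45.1 in LNP-Ctrl libraries. For TRBD1 they were 43.1, 42.6 and 42.8 bases in LNP-P20-mAb, against 42.8, 42.7 and 42.6 in LNP-Ctrl libraries. The difference of 2.18 ± 0.603 bases was positive in 6 of 6 libraries (SD, n = 6; exact sign-flip p = 0.031), and it was 2.01 bases with D named by the 7-base runs (exact sign-flip p = 0.031) and 2.30 with LNP-P20-mAb 1 and 2 pooled (exact sign-flip p = 0.0625). The annotated segments themselves differ by 2 bases in length, and TRBD2 matches of 9 to 11 bases were called less often than TRBD1 matches. Whether either bears on the CDR3 difference was not tested.

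Among distinct receptors the shares of the segments overlapped between the treatments. The name TRBD1 was given to 12.2%, 15.5% and 14.4% of receptors in LNP-P20-mAb 1, 2 and 3 and to 15.1%, 15.5% and 14.3% in LNP-Ctrl 1, 2 and 3. TRBD2 was called in 10.2%, 7.64% and 9.88% of LNP-P20-mAb receptors and in 9.19%, 8.80% and 8.00% of LNP-Ctrl receptors. The groups overlapped for both segments. TRBD1 averaged 14.0% ± 1.71 in LNP-P20-mAb, against 15.0% ± 0.575 in LNP-Ctrl receptors (SD, n = 3 each; exact permutation p = 0.7). TRBD2 averaged 9.23% ± 1.39 in LNP-P20-mAb, against 8.66% ± 0.609 in LNP-Ctrl receptors (SD, n = 3 each; exact permutation p = 0.6). No D was called in 76.8% ± 0.963 of LNP-P20-mAb, against 76.4% ± 1.11 of LNP-Ctrl receptors (n = 3 each; exact permutation p = 0.5).

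TRBC1 stood on 26.3%, 31.5% and 30.9% of receptors in LNP-P20-mAb 1, 2 and 3 and on 30.7%, 31.8% and 33.9% in LNP-Ctrl 1, 2 and 3. The means were 29.5% ± 2.85 in LNP-P20-mAb, against 32.1% ± 1.66 in LNP-Ctrl libraries (SD, n = 3 each; exact permutation p = 0.3). Here LNP-P20-mAb 1 was the lowest and the other 2 lay within the LNP-Ctrl range. With LNP-P20-mAb 1 and 2 pooled the differences, LNP-P20-mAb minus LNP-Ctrl, were -1.13 percentage points for TRBD1, 1.13 for TRBD2 and -2.63 for TRBC1, and the lowest exact permutation p was 0.2. Single libraries moved these differences. Leaving out 1 library gave -1.70 (without LNP-P20-mAb 2) to -0.024 points (without LNP-P20-mAb 1) for TRBD1 and -3.56 to -0.957 for TRBC1, again without LNP-P20-mAb 2 and 1. For TRBD2 it gave 0.0967 points without LNP-P20-mAb 1 and 1.37 without LNP-P20-mAb 2, the second at the smallest exact permutation p of 0.1.

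Within the second J cluster TRBD1 was called less often in every LNP-P20-mAb library than in any LNP-Ctrl library. It was called in 9.40%, 11.5% and 10.6% of receptors of that cluster in LNP-P20-mAb 1, 2 and 3, against 12.8%, 12.6% and 11.9% in LNP-Ctrl 1, 2 and 3. The groups did not overlap, and the difference was -1.96 percentage points (exact permutation p = 0.1, the smallest possible, not adjusted). For TRBD2 it was 0.291 points in the same cluster (exact permutation p = 0.8). By the 7-base run the groups overlapped. The TRBD1 run stood on 8.50%, 10.8% and 8.39% of that cluster's receptors for LNP-P20-mAb 1, 2 and 3. For LNP-Ctrl 1, 2 and 3 it was 10.8%, 10.7% and 10.2% (difference -1.35 points, exact permutation p = 0.3). TRBD1 matches of 9 to 11 bases were also called less often in each LNP-P20-mAb library (61.9% to 79.7%, against 82.4% to 87.0%). Whether this bears on the difference by call was not tested.

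In a fit of edgeR's quasi-likelihood test to receptor numbers of 40 TRBV, TRBD, TRBJ and TRBC segments, none of the 4 segments nor the class without a D call passed the test between the treatments, and 9 of the 40 segments had an unadjusted p under 0.05. The background was 10.0% of segments called at an adjusted p under 0.05 (4 of 40), with 2.50% higher and 7.50% lower in LNP-P20-mAb, and DESeq2 called 4 as well. The 4 were TRBV segments, TRBV12-2 higher in LNP-P20-mAb (log2 change 1.09, SE 0.157, edgeR adjusted p = 0.00442) and TRBV3, TRBV15 and TRBV31 lower (log2 changes of -1.87, -1.31 and -0.86). Counted by cells none of the 4 passed, and TRBV12-2, TRBV3 and TRBV15 had the opposite sign (log2 changes of -0.46, 0.25 and 1.34). The log2 change of LNP-P20-mAb over LNP-Ctrl was -0.10 for TRBD1 (SE 0.0882, edgeR adjusted p = 0.453), 0.12 for TRBD2 (SE 0.120, edgeR adjusted p = 0.457) and 0.01 without a D call (edgeR adjusted p = 0.978). For the constant segments it was -0.12 for TRBC1 (SE 0.0702) and 0.06 for TRBC2 (SE 0.0331), each with an edgeR adjusted p of 0.331. None of the 6 J segments of the first cluster and none of the 6 of the second was called, with median log2 changes of -0.12 and -0.03 beside -0.06 over all 40 segments.

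Counted by cells, TRBD1 had a lower share in each LNP-P20-mAb library than in any LNP-Ctrl library, and it was lowest in LNP-P20-mAb 1 and 2, which share clones. It was carried by 6.13%, 8.01% and 11.0% of cells in LNP-P20-mAb 1, 2 and 3 and by 11.4%, 14.0% and 14.9% in LNP-Ctrl 1, 2 and 3. The groups did not overlap, with means of 8.38% ± 2.46 in LNP-P20-mAb, against 13.4% ± 1.85 in LNP-Ctrl libraries (SD, n = 3 each; exact permutation p = 0.1, the smallest possible, and 0.5 after Benjamini-Hochberg adjustment over the 15 comparisons between treatments). Cells without a D call made up 82.0% ± 0.988 of LNP-P20-mAb, against 78.3% ± 1.56 of LNP-Ctrl cells, again without overlap (n = 3 each; exact permutation p = 0.1). With LNP-P20-mAb 1 and 2 pooled, TRBD1 was carried by 6.85% of their cells and the difference between the treatments was -4.51 points (exact permutation p = 0.2), while that of cells without a D call was 3.94 (exact permutation p = 0.1). TRBD2 was carried by 9.60% ± 2.88 of LNP-P20-mAb, against 8.22% ± 0.615 of LNP-Ctrl cells (n = 3 each; exact permutation p = 0.4). TRBC1 was carried by 29.9% ± 5.43 of LNP-P20-mAb, against 29.4% ± 5.33 of LNP-Ctrl cells (n = 3 each; exact permutation p = 0.7), and in 2 libraries of each treatment it was above 31%. The TRBC1 difference of 0.522 points was -0.946 when pooled and -2.54 to 3.63 with a library left out, and that of TRBD2, 1.38 points, was 0.571 when pooled and 0.474 to 3.04 with a library left out.

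**Figure D4:**
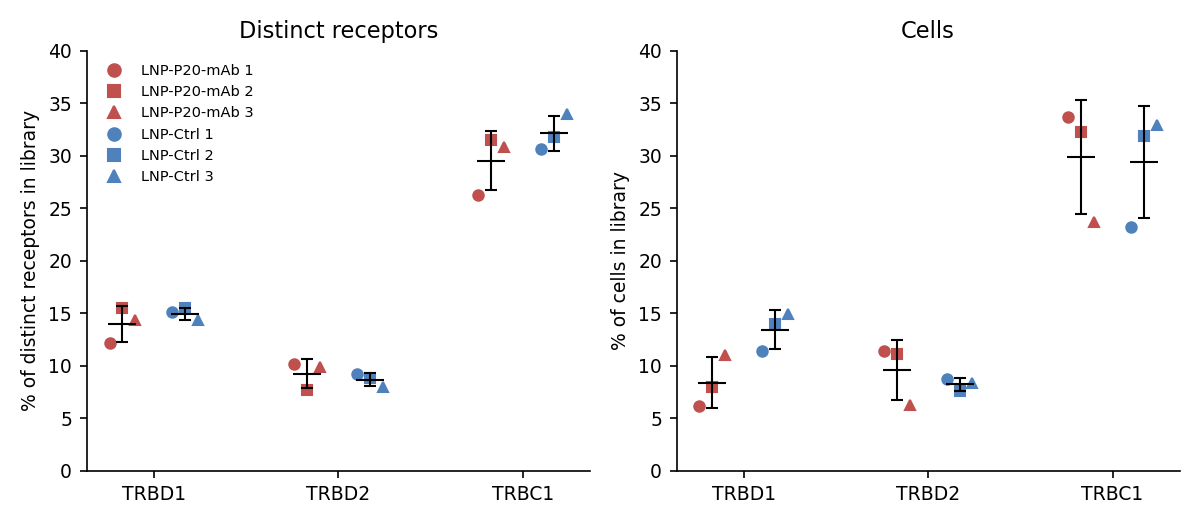
Percent of distinct receptors (left) and of cells (right) with TRBD1, TRBD2 and TRBC1 in each library, with 1 point per library and mean ± SD of 3 libraries in black. TRBD1 overlaps between the treatments among receptors, whereas among cells LNP-P20-mAb libraries (6.13 to 11.0%) lie below LNP-Ctrl libraries (11.4 to 14.9%).

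Most of the largest clones had no D call, as did most receptors of all sizes. Receptors of 20 or more cells numbered 58 in LNP-P20-mAb, against 24 in LNP-Ctrl libraries, with 5004 cells of LNP-P20-mAb, against 1656 of LNP-Ctrl. Counting a receptor once per treatment, 34 of 39 in LNP-P20-mAb (87.2%), against 20 of 24 in LNP-Ctrl libraries (83.3%), had no D call, beside 76.5% of receptors of all sizes. By library the share without a D call spanned 50.0% to 100%, and no test was made of it. The largest receptors of 3 classes are printed because they hold the most cells of their class, with the exact match to the called D in capitals.
No D call, 347 cells of LNP-P20-mAb 1 and 204 of LNP-P20-mAb 2, TRBV15 with TRBJ1-5 and TRBC1: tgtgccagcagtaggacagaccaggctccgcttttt
No D call, 421 cells of LNP-P20-mAb 3, TRBV3 with TRBJ2-3 and TRBC2: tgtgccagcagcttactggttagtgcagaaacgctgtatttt
No D call, 475 cells of LNP-Ctrl 1, TRBV20 with TRBJ2-1 and TRBC2: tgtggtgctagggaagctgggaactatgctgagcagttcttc
TRBD2, 266 cells of LNP-P20-mAb 1 and 141 of LNP-P20-mAb 2, TRBV13-1 with TRBJ2-7 and TRBC2: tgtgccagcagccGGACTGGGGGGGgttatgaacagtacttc
TRBD2, 107 cells of LNP-Ctrl 1, TRBV12-2 with TRBJ2-7 and TRBC2: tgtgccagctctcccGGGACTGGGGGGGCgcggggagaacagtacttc
TRBD1, 58 cells of LNP-P20-mAb 1 and 37 of LNP-P20-mAb 2, TRBV1 with TRBJ1-5 and TRBC1: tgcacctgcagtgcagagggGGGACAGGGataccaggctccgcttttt
TRBD1, 23 cells of LNP-Ctrl 1, TRBV3 with TRBJ1-4 and TRBC1: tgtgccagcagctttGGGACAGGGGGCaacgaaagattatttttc
The largest receptor without a D call held 9.71% of cells in LNP-P20-mAb 1, 9.29% in LNP-P20-mAb 2 and 13.7% in LNP-P20-mAb 3. It held 13.4% in LNP-Ctrl 1 but 2.32% in LNP-Ctrl 2. In LNP-Ctrl 3 all receptors of 20 or more cells together held 75 cells. The largest TRBD2 receptor held 7.44% and 6.42% of cells in LNP-P20-mAb 1 and 2 and 3.02% in LNP-Ctrl 1, whereas the largest TRBD1 receptor held 1.62% and 1.68% in LNP-P20-mAb 1 and 2 and 0.649% in LNP-Ctrl 1.

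By clone size, TRBD1 was called in 14.7%, 14.5% and 12.5% of receptors of 3 or more cells in LNP-P20-mAb 1, 2 and 3 and in 11.0%, 17.9% and 22.9% in LNP-Ctrl 1, 2 and 3. Among receptors of 1 cell it was called in 11.8%, 15.6% and 14.7% in LNP-P20-mAb and in 15.1%, 15.3% and 14.3% in LNP-Ctrl libraries. The direction differed from library to library, and the mean difference was 1.11 percentage points (exact sign-flip p = 0.625). For TRBD2 the share was 7.85% ± 2.28 in receptors of 3 or more cells and 9.01% ± 0.949 in receptors of 1 cell (SD, n = 6; difference -1.16 percentage points, exact sign-flip p = 0.375), and without a D call it was 76.6% ± 5.23 and 76.5% ± 0.981 (exact sign-flip p = 1). These shares rest on 48 to 120 receptors of 3 or more cells per library.

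With D named by the 7-base run, TRBD2 was rarer in receptors of 3 or more cells than in receptors of 1 cell in all 6 libraries. The share was 12.0%, 13.2% and 15.0% in receptors of 3 or more cells of LNP-P20-mAb 1, 2 and 3 and 14.3%, 14.7% and 10.4% in those of LNP-Ctrl 1, 2 and 3. In receptors of 1 cell it was 17.3%, 15.3% and 18.2% in LNP-P20-mAb, against 16.3%, 15.4% and 14.5% in LNP-Ctrl libraries. The mean difference was -2.92 percentage points (exact sign-flip p = 0.031, not adjusted), and this way of naming was chosen after its values were seen. It spanned -5.27 to -0.70 points over the libraries.

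TRBC1 differed by clone size in LNP-Ctrl libraries in 1 direction. It stood on 29.3%, 31.6% and 29.2% of receptors of 3 or more cells in LNP-P20-mAb 1, 2 and 3 and on 25.3%, 26.3% and 29.2% in LNP-Ctrl 1, 2 and 3. In receptors of 1 cell it stood on 25.7%, 32.1% and 30.9% in LNP-P20-mAb and on 31.1%, 32.2% and 34.1% in LNP-Ctrl libraries. The difference was 3.63, -0.55 and -1.75 percentage points in LNP-P20-mAb, against -5.86, -5.88 and -4.92 in LNP-Ctrl libraries, so that the groups did not overlap. Over all 6 libraries it was -2.56 points (exact sign-flip p = 0.156). Between the treatments it differed by 6.00 points (exact permutation p = 0.1, the smallest possible, and 0.5 after adjustment over 15 comparisons), and by 5.62 with LNP-P20-mAb 1 and 2 pooled (exact permutation p = 0.1). With receptors of 5 or more cells in place of 3 the difference was 3.64 points (exact permutation p = 0.6).

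**Figure D5:**
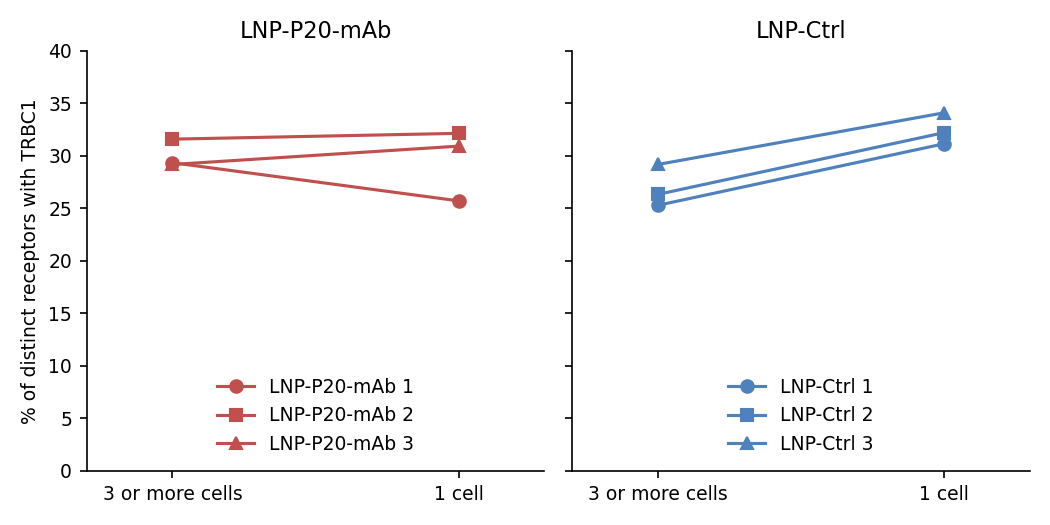
Percent of distinct receptors with TRBC1 (vertical axis) among receptors of 3 or more cells and of 1 cell, with 1 line per library, LNP-P20-mAb on the left and LNP-Ctrl on the right. In LNP-Ctrl libraries the difference, 3 or more cells minus 1 cell, lies between -5.88 and -4.92 percentage points, and in LNP-P20-mAb libraries the lines run in both directions.

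The edgeR fit of segment use by clone size, with the library as block, called none of the 4 segments nor the class without a D call, against a background of 2.50% (1 of 40 segments, TRBV13-1, and 0 in DESeq2). TRBD2 had the largest log2 change among them, -0.24 for receptors of 3 or more cells over receptors of 1 cell (SE 0.220, edgeR adjusted p = 0.475), followed by TRBC1 with -0.13 (SE 0.0843, edgeR adjusted p = 0.469). For the difference of this effect between the treatments the background was 0.00% (0 of 40 segments by edgeR, 0 with an unadjusted p under 0.05, and 0 in DESeq2), and so none of the members was called.

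A C call could be missing in part of a clone. Of 985 receptors found in 2 or more cells, 23 had a C call in some cells and none in others. The D class and the C name, where given, were the same in all cells of each, which share their V, J and CDR3 bases by definition.

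Across J segments the share of receptors with a D call differed by less than 10 percentage points within a cluster. Over all receptors a D was called in 19.2% (TRBJ2-4) to 26.7% (TRBJ2-5) of receptors of each J segment of the second cluster and in 17.1% (TRBJ1-6) to 25.8% (TRBJ1-4) of those of the first. TRBD2 made up 46.2% (TRBJ2-2) to 54.8% (TRBJ2-4) of calls and 61.2% to 76.1% of runs on the same J segments of the second cluster, and 0 to 1.45% of calls in the first. These ranges were not tested, and the TRBD2 share of runs on TRBJ2-2 alone spanned 40.0% to 72.2% between libraries. Between single libraries the share with a D call spanned 2.86% to 43.8% on TRBJ1-5 and 20.9% to 25.5% on TRBJ2-2.

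TRBV29 had the lowest TRBD2 share among V segments in the second J cluster, which was noticed after the values were seen and is a description without a test. The TRBD2 run made up 27.6% of 87 runs on TRBV29 and 51.9% (TRBV26) to 80.4% (TRBV12-1) on the 19 other V names with at least 80 receptors in that cluster. By library TRBV29 held 0 of 2, 1 of 2 and 5 of 9 TRBD2 runs in LNP-P20-mAb 1, 2 and 3, and 7 of 26, 4 of 25 and 7 of 23 in LNP-Ctrl 1, 2 and 3. Other V segments had 72.9%, 66.3% and 76.0% in LNP-P20-mAb, against 71.1%, 69.8% and 69.6% in LNP-Ctrl libraries. The difference, TRBV29 minus other V segments, was below 0 in 6 of 6 libraries, -41.1 percentage points on average and -72.9 to -16.3 over the libraries, with very few runs in LNP-P20-mAb 1 and 2. The TRBD1 run began at 13 different positions of the CDR3 in TRBV29 receptors of both clusters, from base 11 to base 24.

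The V segments whose share varied over the 6 libraries most like each member were found by the mean absolute difference of log2 shares relative to their own mean. They were TRBV19 (0.12) and TRBV2 (0.12) for TRBD1, TRBV5 (0.12) and TRBV29 (0.13) for TRBD2, TRBV2 (0.08) and TRBV19 (0.10) for TRBC1, and TRBV5 (0.09) and TRBV13-3 (0.09) for TRBC2. Their shares of receptors were 4.29% ± 0.357 for TRBV2, 6.86% ± 0.872 for TRBV19, 7.75% ± 0.800 for TRBV5, 6.77% ± 0.750 for TRBV13-3 and 4.97% ± 1.05 for TRBV29 (SD, n = 6).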

How the data were processed

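The deposited files list assembled TCR chains with V, D, J and C names, CDR3 bases and raw counts of reads and UMIs per chain, per the file headers. Cell Ranger 8.0.1 is named in the submitters' processing notes, with no word on how D and C segments were named. The role of the mouse genome builds named there is open, and coordinates are left out. A chain with few UMIs or bases can lack a C name, and one with few matching D bases can lack a D name. Receptors with and without a D call had 15.8 and 15.5 UMIs.

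TRB chains listed more than once on a barcode (7) were counted once, and 3688 chains on barcodes with 2 TRB chains were left out as candidate doublets. An alpha chain was not required. Each library was 1 replicate. Treatments were compared with two-sided exact permutation tests over 20 assignments (smallest p 0.1) and differences within libraries by exact sign-flip permutation over 64 flips (smallest p 0.031). Segments with at least 30 receptors were tested with edgeR 4.0.16 (quasi-likelihood, R 4.3.3) on receptor counts, library size the number of receptors, no further scaling, Benjamini-Hochberg over 40 segments, threshold 0.05, and with DESeq2 1.42.0 as an alternative. SEs of log2 changes are their size over the square root of F. Both kinds of test were tested on simulated data. Other steps ran in Python 3.11.15 with pandas 2.3.3 and numpy 2.4.6, and plots were drawn in matplotlib 3.10.9.

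The members, lists, tests and alternatives were chosen with earlier results of these data known. Named are all 4 members, the J segments, V segments called between treatments, the 2 V segments most alike in pattern, and the largest receptors of each D and J class. TRBV29, the 7-base runs and the comparison at equal match length were chosen after their values were seen. No germline genome was at hand, and D sequences come from the receptors, with names and lengths from RefSeq (GRCm38.p6).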

Additional observations from a re-analysis of the deposited data

How the results depend on the processing

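None of the 4 segments and not the class without a D call passed the edgeR threshold in any alternative run for treatment or clone size, and calls of V segments moved. Pooling LNP-P20-mAb 1 and 2 leaves 5 samples, whose smallest exact sign-flip p is 0.0625, as does leaving out any library, and the following differences then stood at that p by construction. Pooled, they were 52.6 percentage points for D by J cluster, 99.8 for C by J cluster, 2.40 bases for CDR3s with minus without a D call and 2.30 bases for TRBD2 minus TRBD1. With a library left out they ranged from 51.0 to 52.7 points, 99.8 to 99.9 points, 2.27 to 2.41 bases and 2.03 to 2.32 bases. With median lengths the difference by D call was 2.50 bases (exact sign-flip p = 0.0625, cause not tested).

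Differences that did not pass a test also changed sign, and the cause was not tested. For the share without a D call the difference between treatments was -0.176 percentage points with all barcodes kept, -0.0036 pooled and -0.0057 with D named by run, and by log2 change -0.0044 with all barcodes, -0.00061 pooled and -0.0054 with the replicate block. Leaving out a library gave -0.0728 to 1.03 points and log2 changes of -0.0032 to 0.018. By cells the difference was 0.522 points for TRBC1, with log2 changes of 0.025 for TRBC1 and -0.0038 for TRBC2. Of the 4 called V segments, 3 also changed sign by cells, with log2 changes of -0.46 for TRBV12-2, 1.34 for TRBV15 and 0.25 for TRBV3. The CDR3 length difference by D call differed between treatments by 0.00093 bases pooled and by -0.307 to 0.0224 with a library left out.

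By clone size, TRBD2 gave 0.0832 points and a log2 change of 0.061 from 2 cells on, and -2.92 points by run, at the smallest exact sign-flip p. No D call gave -0.707 points with all barcodes, -0.550 from 3 UMIs on, -0.0061 pooled, -0.671 from 2 cells on (log2 change -0.020) and -0.717 from 5 cells on. Leaving out a library gave -0.396 to 2.15 points for TRBD1, -1.27 to 2.28 without a D call, and log2 changes of -0.058 to 0.13 and -0.0045 to 0.046. The difference of this effect between treatments was 0.537 points for TRBD1 by run, and for TRBD2 -0.656 with all barcodes, -1.23 from 2 cells on and -1.27 by run. With a library left out it ranged from -5.78 to 0.580 for TRBD1, -0.736 to 2.83 for TRBD2 and -3.41 to 5.49 without a D call. The log2 UMI ratio by C segment was 0.15 with means over receptors (exact sign-flip p = 0.031), and that by D call -0.012 from 3 UMIs on, -0.0055 pooled, -0.065 with means, -0.039 by run and -0.0011 to 0.045 with a library left out.

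Of 40 segments, edgeR called 4 between treatments, 2 with LNP-P20-mAb 1 and 2 pooled, 7 without LNP-Ctrl 1, 1 without LNP-Ctrl 2 and 2 without LNP-Ctrl 3 or LNP-P20-mAb 2, so 1 to 7 in all. By clone size it called 1, against 2 from 3 UMIs on, 2 from 2 cells on, 0 pooled, 0 with paired cells only and 0 by DESeq2, and 0 to 2 with a library left out (0 without LNP-P20-mAb 1, 2 or 3 and 2 without LNP-Ctrl 3). The difference between treatments gave 1 call with all barcodes kept. Replicate numbers did not pair the libraries (correlations of deviations -0.316, -0.141 and -0.104 for the 3 numbers, and no library matched its own number best), and the fit with the replicate block called 4. As exact sign-flip tests over 3 pairs (smallest p 0.25) the block gave TRBD1 -0.954 and TRBC1 -2.59 points. Depth limits the clone size comparisons, which rest on 48 to 120 receptors of 3 or more cells per library.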
